A study of Mus musculus with 6 samples.

Results

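The mitochondrial genome genes are the 37 genes placed on chromosome MT in a deposited table of 54532 genes. That position alone sets the members, but the group was chosen with earlier results of these data known. The members are 13 mRNA genes for respiratory chain proteins, 2 rRNA genes and 22 tRNA genes. On the map 28 lie on the plus and 9 on the minus strand. The samples are 6 mouse libraries whose labels give MIN6, a beta cell line derived from an insulinoma; the shared extraction text speaks of frozen tissues, Trizol and a TruSeq RNA kit. The labels give 3 libraries the genotype control (titles with "shc") and 3 the genotype PP2Ac knockdown (titles with "sh2"). PP2Ac, encoded by Ppp2ca, is the catalytic part of the serine/threonine phosphatase PP2A. The labels name no time point, dose, further treatment or way of delivering the knockdown, nor whether replicates came from separate cultures, so p-values below measure only the spread between these libraries. The values are FPKM, the reads of a gene divided by its length and by a size of the library.

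Mitochondrial DNA is a small circle that encodes core subunits of the respiratory chain, with the rRNAs and tRNAs needed to translate them. Both strands are transcribed into long RNAs, from which the mRNAs and rRNAs are released mostly by cutting out the tRNAs that lie between them. The plus strand of the map carries most genes, and the minus strand carries mt-Nd6, a complex I subunit gene, and 8 tRNA genes. Most mitochondrial mRNAs receive a short poly(A) tail, and mature tRNAs do not, so kits that select poly(A) RNA capture them poorly.

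The genes are packed so closely that 9 pairs overlap, 6 on one strand and 3 on opposite strands. The 3 longest overlaps are shown because a read that reaches into them touches both genes. How such reads were counted is unstated. All sequences are GRCm38, from GENCODE M21, and every one of the 37 genes has the same length there as in the deposited table. Capitals mark the 43 bases that mt-Atp8 shares with mt-Atp6 (chrMT:7927-7969), the 7 bases that mt-Nd4l shares with mt-Nd4 (chrMT:10167-10173), and the 14 bases of mt-Nd5 that are antisense to mt-Nd6 (chrMT:13552-13565).
mt-Atp8 end: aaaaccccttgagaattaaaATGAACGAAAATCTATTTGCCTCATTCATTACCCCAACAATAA
mt-Nd4l end: caaaatctcaacctactacaATGCTAA
mt-Nd5 end: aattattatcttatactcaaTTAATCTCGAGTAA

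Of the tRNA genes, 4 are shown because their changes, given below, span the range found. Capitals mark the anticodon, found as the middle of a loop of 7 bases closed by a stem of 5. The search allowed G-T pairs and an unpaired position in the stem, as mt-Tl1 has. The genes are mt-Te for glutamate (chrMT:14071-14139, minus strand), mt-Tl1 for a leucine tRNA (chrMT:2676-2750, plus), mt-Tp for proline (chrMT:15356-15422, minus) and mt-Ty for tyrosine (chrMT:5260-5326, minus).
mt-Te: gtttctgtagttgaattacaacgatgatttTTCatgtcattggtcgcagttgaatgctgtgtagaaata
mt-Tl1: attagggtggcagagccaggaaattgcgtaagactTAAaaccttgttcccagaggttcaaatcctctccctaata
mt-Tp: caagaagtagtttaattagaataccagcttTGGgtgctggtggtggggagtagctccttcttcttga
mt-Ty: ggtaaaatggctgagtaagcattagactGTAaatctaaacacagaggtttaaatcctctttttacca

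Recovered reads came to 14614737 to 16030939 per library. Ppp2ca, the targeted gene, had 42.5, 34.6 and 35.6 FPKM in control and 10.1, 11.4 and 10.9 FPKM in knockdown, so the libraries follow their labels. Of 10 beta cell markers 5 were listed at 0 in every library (Ins1, Ins2, Slc2a2, Nkx6-1 and Pcsk1), and 8 had a mean FPKM below 1, so most defining transcripts of the labelled cell type were absent or near 0. Stromal, endothelial and immune markers summed to 34.5 to 38.1 FPKM in control and 103.9 to 112.8 FPKM in knockdown, while Cdh5, Cd3e and Adgre1 were at 0. Within that sum Col1a1, a fibroblast collagen gene, had means of 9.95 and 86.9 FPKM, and Cd68, a macrophage marker and the highest of the list in control, had 16.5 and 2.27 FPKM. Genes with at least 1 read numbered 21421 to 21690 in control and 19560 to 19960 in knockdown. The beta cell markers summed to 2.91 to 4.70 FPKM in control and 8.16 to 9.78 FPKM in knockdown. These sums and the number of genes detected moved with the groups, and their part in the results below was not tested. In such bulk libraries fewer cells of a type and less RNA per cell cannot be told apart.

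Mitochondrial transcripts took a smaller share of the knockdown libraries. The 37 genes held 3.18%, 3.50% and 2.74% of recovered reads in control and 1.34%, 1.26% and 1.38% in knockdown. The groups did not overlap, and the means were 3.14% ± 0.382 and 1.33% ± 0.0605 (SD, n = 3), so 42.2% of the control share was left. The mRNA genes gave 96.6% to 96.7% of these reads in control and 97.4% to 97.5% in knockdown. The rRNA genes gave 3.11% to 3.22% in control and 2.23% to 2.29% in knockdown, and the tRNA genes 0.205% to 0.236% and 0.264% to 0.304%. The order of what was left, by share of all reads, was 55.8% for tRNA, 42.6% for mRNA and 30.5% for rRNA genes. mt-Co1, the gene of the catalytic subunit of complex IV, alone held 41.9%, 45.2% and 44.3% of the members' reads in control and 54.8%, 54.5% and 53.1% in knockdown. Without mt-Co1 the other 36 genes held 1.76% ± 0.209 of reads in control and 0.608% ± 0.0362 in knockdown (SD, n = 3), 34.5% of the control share.

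Genes were tested with limma on log2(FPKM + 1) across the 11652 genes that averaged 1 FPKM or more in the 6 libraries. A log2 change is the knockdown mean less the control mean on this scale, where the pseudocount shrinks the change of low genes, and adjusted p is Benjamini-Hochberg over all genes tested. Of the 37 members 31 passed the filter, namely all 13 mRNA genes, both rRNA genes and 16 tRNA genes. Of these 31, 21 were lower, 0 were higher and 10 did not pass the threshold of 0.05 (limma). No member was higher at an unadjusted p under 0.05 either, and limma voom on the recovered reads also gave 21 lower and 0 higher. Over all tested genes 62.4% were called in either direction and 29.1% were called lower. The groups did not overlap for 20 members, all lower in knockdown, against 31.7% of all tested genes that were lower without overlap. The median log2 change was -1.46 over the mRNA genes, -1.60 over the rRNA genes and -0.47 over the tested tRNA genes, beside 0.03 over all tested genes.

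**Figure D1:**
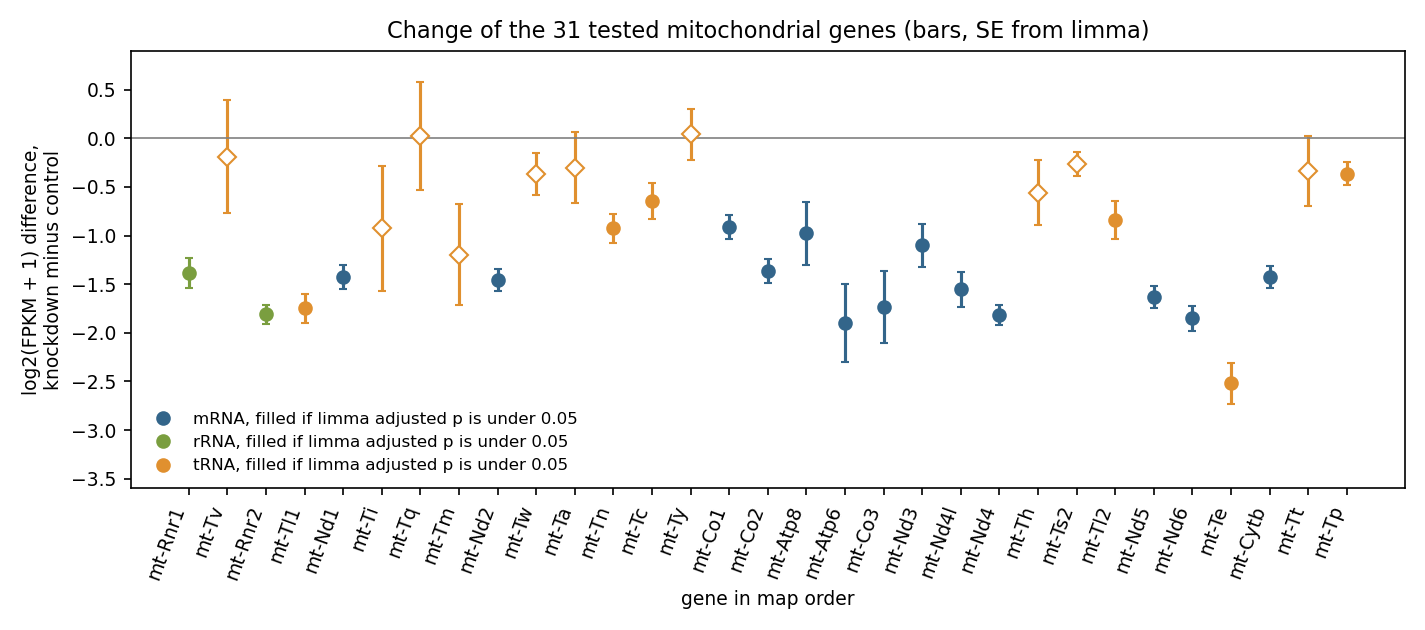
The vertical axis is the difference in log2(FPKM + 1), knockdown minus control, for the 31 tested genes in map order along the horizontal axis. Bars are limma standard errors, colours the RNA class, and filled circles mark adjusted p under 0.05. All mRNA and rRNA genes lie between -1.90 and -0.91, while tRNA genes range from -2.52 for mt-Te to 0.04 for mt-Ty.

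The rRNA genes encode the RNA of the small (mt-Rnr1) and large (mt-Rnr2) subunit of the mitochondrial ribosome. mt-Rnr1 had 288, 334 and 216 FPKM in control and 105, 114 and 95.5 FPKM in knockdown. mt-Rnr2 had 471, 475 and 397 FPKM in control and 132, 116 and 132 FPKM in knockdown. Every knockdown library lay below every control library for both. mt-Rnr1 fell by 1.38 on the log2 scale (SE 0.152, limma adjusted p = 0.00012) and mt-Rnr2 by 1.81 (SE 0.0958, limma adjusted p = 5.1e-06). How much rRNA the library preparation kept was not measured here.

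Complex I, which takes electrons from NADH, has 7 subunits encoded in mitochondrial DNA, and all 7 mRNAs fell. mt-Nd1 had 4997, 5236 and 3896 FPKM in control and 1757, 1704 and 1753 FPKM in knockdown. mt-Nd2 had 2293, 2229 and 1752 FPKM in control and 758, 731 and 778 FPKM in knockdown. The groups were far apart for both, with 36.9% and 36.1% of the control mean left. mt-Nd4 had 1312, 1285 and 1056 FPKM in control and 343, 335 and 352 FPKM in knockdown. mt-Nd5 had 1227, 1196 and 1017 FPKM in control and 379.6, 327 and 401 FPKM in knockdown. mt-Nd6, the mRNA annotated on the minus strand, had 1001, 878 and 756 FPKM in control and 253, 209 and 265 FPKM in knockdown. No strand setting is stated, so these reads may include RNA of the opposite strand. These 3 genes kept 28.2%, 32.2% and 27.6% of the control mean, less than mt-Nd1 and mt-Nd2, a difference that was not tested. mt-Cytb, a complex III gene still further along the map, kept 37.1%. mt-Nd4l had 11.8, 12.4 and 12.5 FPKM in control and 2.40, 3.52 and 4.96 FPKM in knockdown. mt-Nd3 had 4.13, 4.82 and 2.80 FPKM in control and 2.04, 0.751 and 1.15 FPKM in knockdown. mt-Nd4l and mt-Nd3 were listed far below the others of the complex, in both groups. The log2 changes of the 7 ran from -1.85 for mt-Nd6 (SE 0.128, limma adjusted p = 1.4e-05) to -1.10 for mt-Nd3 (SE 0.224, limma adjusted p = 0.0029).

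Complex III, which passes electrons to cytochrome c, has a single subunit encoded here, cytochrome b. Its gene mt-Cytb had 4751, 5075 and 4056 FPKM in control and 1704, 1642 and 1808 FPKM in knockdown, a fall of 1.42 on the log2 scale (SE 0.11, limma adjusted p = 2.4e-05) that left 37.1% of control. Complex IV, cytochrome c oxidase, has 3. mt-Co1 was the highest of the 37 genes per length in all 6 libraries, with 8596, 10069.9 and 7658 FPKM in control and 4789, 4510 and 4625 FPKM in knockdown. Its groups did not overlap, and its log2 change of -0.91 (SE 0.124, limma adjusted p = 0.00036) was the smallest of the 13 mRNA genes on this scale, with 52.9% of control left. mt-Co2 had 117, 139.8 and 98.9 FPKM in control and 41.6, 47.4 and 46.6 FPKM in knockdown. mt-Co3 had 35.6, 82.3 and 23.9 FPKM in control and 12.6, 10.9 and 11.7 FPKM in knockdown, so control library 2 stood above the other control libraries. Both fell, mt-Co2 by 1.36 (SE 0.123, limma adjusted p = 4.8e-05) and mt-Co3 by 1.73 (SE 0.367, limma adjusted p = 0.0036).

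Complex V, the ATP synthase, has 2 subunits encoded in mitochondrial DNA. mt-Atp6 had 102, 55.8 and 32.5 FPKM in control and 11.2, 11.7 and 23.2 FPKM in knockdown. The control values varied widely but stayed above all knockdown values, and the fall of 1.90 on the log2 scale had the largest standard error among the mRNA genes (0.401, limma adjusted p = 0.0035). mt-Atp8 was listed at 3.06, 1.90 and 1.79 FPKM in control and 0, 1.60 and 0.656 FPKM in knockdown, from at most 10 reads in a library. It passed the threshold (log2 change -0.98, SE 0.321, limma adjusted p = 0.0275), but not without control library 1 (limma adjusted p = 0.0907), knockdown library 1 (0.0598) or knockdown library 3 (0.065), nor with a pseudocount of 0.1 (0.0648). For the complexes, the median log2 change was -1.55 over the 7 genes of complex I, -1.36 over the 3 of complex IV and -1.44 over the 2 of complex V. On this scale these differ by less than the range of the genes within complex I. The pseudocount shrinks the changes of mt-Atp8 and mt-Nd3, which were -1.96 and -1.59 with limma voom on the recovered reads. The medians therefore do not rank the complexes.

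**Figure D2:**
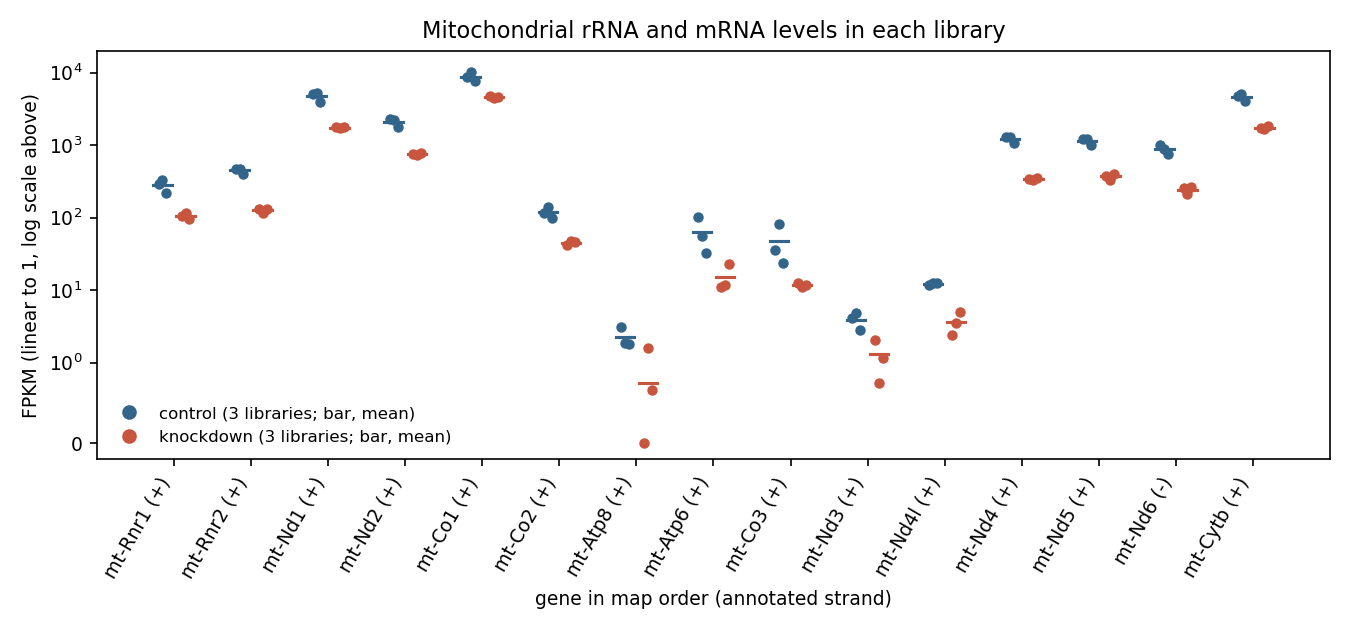
Each point is the FPKM of 1 library (linear up to 1 and logarithmic above) for the rRNA and mRNA genes in map order, with their annotated strand, and bars are group means. Knockdown points lie below control points for every gene shown, and the 6 genes from mt-Co2 to mt-Nd4l sit far below their neighbours on either side in both groups.

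The low block in the middle of the map coincides with a nuclear copy of mitochondrial DNA on chromosome 1. Nuclear copies arise when mitochondrial DNA is inserted into a chromosome, and reads from near-identical copies cannot be placed with certainty. The table holds 7 unprocessed pseudogenes at chr1:24611535-24616197 (GRCm38, minus strand) that align in the same order to positions 6390 to 11042 of the mitochondrial genome. Their annotated sequences are 99.7% to 100% identical to mt-Co1 (its last 483 bases), mt-Co2, mt-Atp6, mt-Co3, mt-Nd3, mt-Nd4l and mt-Nd4 (its first 876 bases). Over the aligned bases 5 of the copies have no difference at all. The others have 1 each, A1066T between mt-Co1 and Gm29216 and T3C between mt-Nd3 and Gm28438, counted from the first base of the mitochondrial gene. Gm29216 aligned over 483 of its 492 bases, from base 1063 of mt-Co1. A1066T thus lies at the edge of the alignment, and whether it is a true base difference was not settled. The start of mt-Nd3 (chrMT:9459-9491) and the matching stretch of Gm28438 (chr1:24613087-24613119, minus strand) are shown with the differing base in capitals, since it is the only one in 345 aligned bases.
mt-Nd3: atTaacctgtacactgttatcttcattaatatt
Gm28438: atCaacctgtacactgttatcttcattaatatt

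Listed levels followed this map closely. The 6 mRNA genes wholly inside the stretch (mt-Co2, mt-Atp8, mt-Atp6, mt-Co3, mt-Nd3 and mt-Nd4l) had control means of 2.25 to 118.6 FPKM. The 7 outside or partly outside it had control means of 878 to 8775 FPKM. The 6 genes gave 0.439% to 0.612% of the members' mRNA reads in control and 0.36% to 0.449% in knockdown. The share of windows of 50 bases that also occur in another annotated transcript was 98.0% to 100% for 5 of the 6. It was 0% for mt-Atp8. Its last 43 bases, shared with mt-Atp6, match Gm10925, the copy of mt-Atp6, but are fewer than the window. It was 62.2% for mt-Nd4, 51.1% for mt-Co1, at most 8.19% for mt-Nd2, mt-Nd5 and mt-Rnr2, and 0% for mt-Nd1, mt-Nd6, mt-Cytb and mt-Rnr1. Read length and the treatment of reads with several matches are unstated, so how reads were shared out between genes and copies was not tested. For the 5 genes with shared windows the FPKM are therefore uncertain and not comparable with those of the other members. For mt-Atp8 no shared window was found among annotated transcripts. The rest of mt-Atp8 lies opposite an unannotated part of the chromosome 1 stretch, which was not compared, so its FPKM may be uncertain too. The same uncertainty holds for mt-Co1 and mt-Nd4 over part of their length.

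The copies were listed with reads and fell with the mitochondrial genes. Gm28661, the copy of mt-Co2, had 117, 141.8 and 89.2 FPKM in control and 38.4, 40.8 and 45.7 FPKM in knockdown, close to mt-Co2 itself in each library. It held 46.1% to 50.2% of the reads of the pair in all 6 libraries. Gm28438, the copy of mt-Nd3, had 44.6, 54.2 and 62.9 FPKM in control and 29.2, 18.4 and 27.4 FPKM in knockdown. This copy held 91.4% to 96.0% of the reads of its pair, far more than mt-Nd3. The copies of mt-Co3 (Gm28437), mt-Atp6 (Gm10925) and mt-Nd4l (Gm10222) held between 20.4% and 69.4% of the reads of their pairs, and those of mt-Nd4 (Gm28439) and mt-Co1 (Gm29216) at most 0.672%. All 7 copies were lower in knockdown, by 0.85 (Gm10222) to 1.52 (Gm28439) on the log2 scale, with limma adjusted p of 0.00011 to 0.0069. On chromosome 2, Gm13340, 97.6% identical to mt-Co1, fell from 3.36 ± 0.672 to 1.39 ± 0.0354 FPKM (SD, n = 3; limma adjusted p = 0.0006). Gm10221, which was in the list of copies, shares no window of 50 bases with a member and fell from 79.2 ± 5.92 to 66.6 ± 3.24 FPKM (SD, n = 3; limma adjusted p = 0.025). The median log2 change was -1.46 over the 6 mRNA genes inside the stretch and -1.46 over the 7 others. The pseudocount shrinks the changes of the low genes inside it. By FPKM without a pseudocount, the median share of the control mean left was 31.5% inside and 36.1% for the others, a difference that was not tested.

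**Figure D3:**
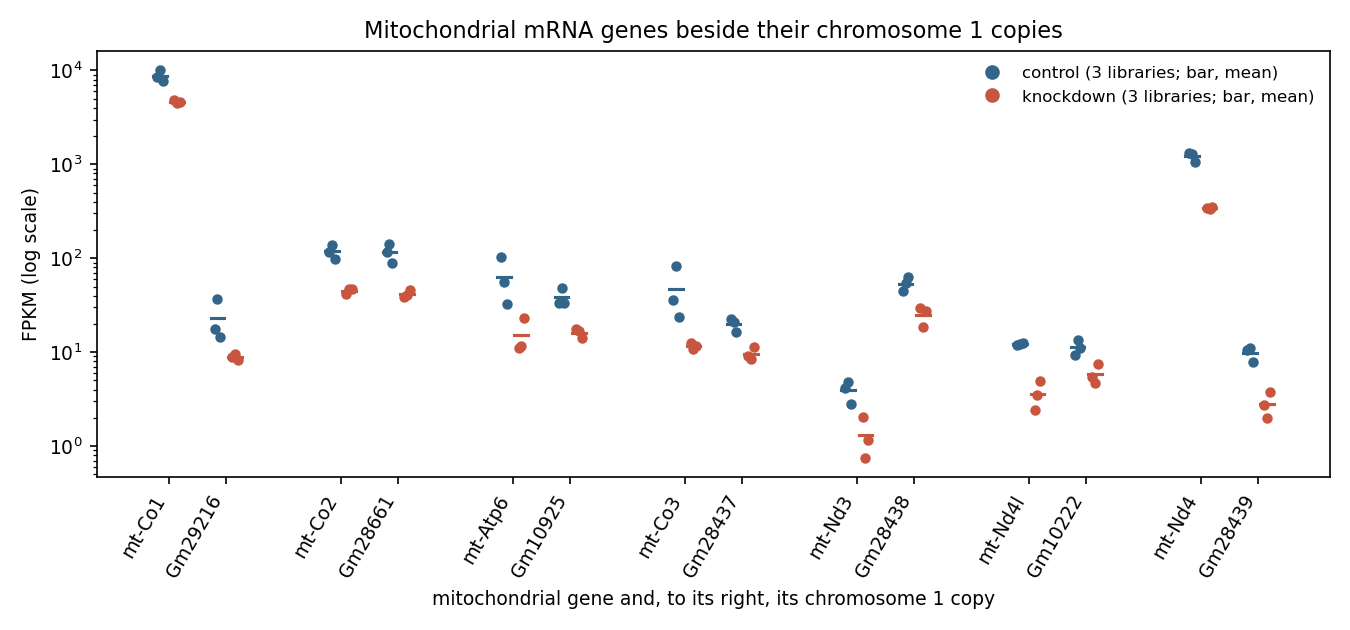
Points are the FPKM of single libraries on a log scale for 7 mitochondrial mRNA genes, each beside its chromosome 1 copy, and bars are group means. mt-Co2 and Gm28661 lie at the same height, Gm28438 lies above mt-Nd3, and the copies of mt-Co1 and mt-Nd4 lie far below them.

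The tRNA genes had few reads, and they did not move as one. All 22 together had 1035 to 1130 reads in each control library and 517 to 635 in each knockdown library. No read was listed in any library for 5 of them, mt-Tf (phenylalanine), mt-Td (aspartate), mt-Tk (lysine), mt-Tg (glycine) and mt-Tr (arginine), and mt-Ts1 (serine) had a single read in 1 control library. At this depth 3 reads would have given at most 3.09 FPKM for mt-Tk, the shortest of these. Of these 6 genes, 5 lie inside the stretch copied on chromosome 1 (mt-Ts1, mt-Td, mt-Tk, mt-Tg and mt-Tr), which are all the tRNA genes there, while mt-Tf lies outside it. Among the 16 tested, 6 fell (mt-Te, mt-Tl1, mt-Tn, mt-Tl2, mt-Tc and mt-Tp) and 10 did not pass the threshold, beside 29.1% of all tested genes called lower. The 10 had fewer reads than the 6, and the part of read number in these calls was not tested.

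mt-Te, for glutamate, had 84.3, 59.8 and 73.3 FPKM in control and 11.2, 8.52 and 16.5 FPKM in knockdown, with 93, 64 and 83 reads against 12, 9 and 17. Its log2 change of -2.52 (SE 0.212, limma adjusted p = 3.5e-05) was the largest of all members, and 16.7% of control was left. It lies directly next to mt-Nd6 on the same strand. mt-Tl1, for leucine, had 234, 174 and 220.1 FPKM in control and 67.3, 49.6 and 68.7 FPKM in knockdown, a fall of 1.75 (SE 0.15, limma adjusted p = 3.8e-05). It lies between mt-Rnr2 and mt-Nd1 with no base between them, and its change fell between those of mt-Rnr2 (-1.81) and mt-Nd1 (-1.43).

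mt-Tp, for proline, was the highest tRNA gene per length, with 284, 321 and 236 FPKM in control and 229, 205 and 216 FPKM in knockdown. The groups lay close without overlap, and 77.2% of control was left (log2 change -0.36, SE 0.114, limma adjusted p = 0.0229). That call was lost in turn without control library 1 or 2 and without knockdown library 2 or 3 (limma adjusted p = 0.0559 to 0.075). mt-Tc, for cysteine, had 134, 133 and 99.7 FPKM in control and 103, 68.3 and 64.9 FPKM in knockdown, so the groups overlapped. Its log2 change was -0.65 (SE 0.185, limma adjusted p = 0.0151), which did not pass without knockdown library 2 (0.0533) or 3 (0.0573). mt-Tn, for asparagine, had 80.1, 73.5 and 62.6 FPKM in control and 47.4, 33.1 and 33.0 FPKM in knockdown, a fall of 0.93. mt-Tl2, for another leucine tRNA, had 94.2, 118 and 85.8 FPKM in control and 47.4, 45.1 and 75.4 FPKM in knockdown, a fall of 0.84. Both kept the groups apart.

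The 10 tested tRNA genes without a call had fewer reads, at most 124 over the 3 control libraries (mt-Tw) against at least 240 for those that fell (mt-Te). mt-Tw, for tryptophan, had 31.7, 32.7 and 50.9 FPKM in control and 22.2, 37.0 and 29.0 FPKM in knockdown. mt-Ty, for tyrosine, had 15.9, 35.6 and 21.8 FPKM in control and 28.0, 18.5 and 26.0 FPKM in knockdown, with 98.9% of the control mean present. The groups overlapped for both, and the standard errors of their log2 changes were 0.216 and 0.265. mt-Ts2 (serine), mt-Th (histidine) and mt-Ta (alanine) had log2 changes of -0.26, -0.56 and -0.30. mt-Tv (valine), mt-Ti (isoleucine), mt-Tq (glutamine), mt-Tm (methionine) and mt-Tt (threonine) had at most 9 reads in all 3 control libraries together. Their log2 changes were -0.19, -0.93, 0.02, -1.20 and -0.33 in that order, and none passed, though mt-Tm did with the replicate number as a block (limma adjusted p = 0.002). Leaving out 1 library brought a call of lower for mt-Ti (without control library 2), mt-Tm (control library 3 or knockdown library 1), mt-Ts2 (knockdown library 1), and mt-Ta, mt-Th and mt-Tt (each without knockdown library 3).

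Grouped by their neighbours on the map, a grouping made after the values were seen, the 3 tested tRNA genes with an mRNA or rRNA gene on both sides were mt-Tl1 and mt-Te, which fell, and mt-Tv, which did not pass. Their log2 changes ran from -2.52 to -0.19, with a median of -1.75. Of the 7 with such a gene on 1 side 1 fell, with a median of -0.56. Of the 6 with tRNA genes or the map's end on either side 3 fell, with a median of -0.33, so the counts of falls do not follow the order of the medians. As no strand setting is stated, reads from a tRNA gene and from RNA of the opposite strand could not be told apart here. By strand, 2 of 9 tested plus-strand and 4 of 7 minus-strand tRNA genes fell, with medians of -0.56 and -0.36.

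**Figure D4:**
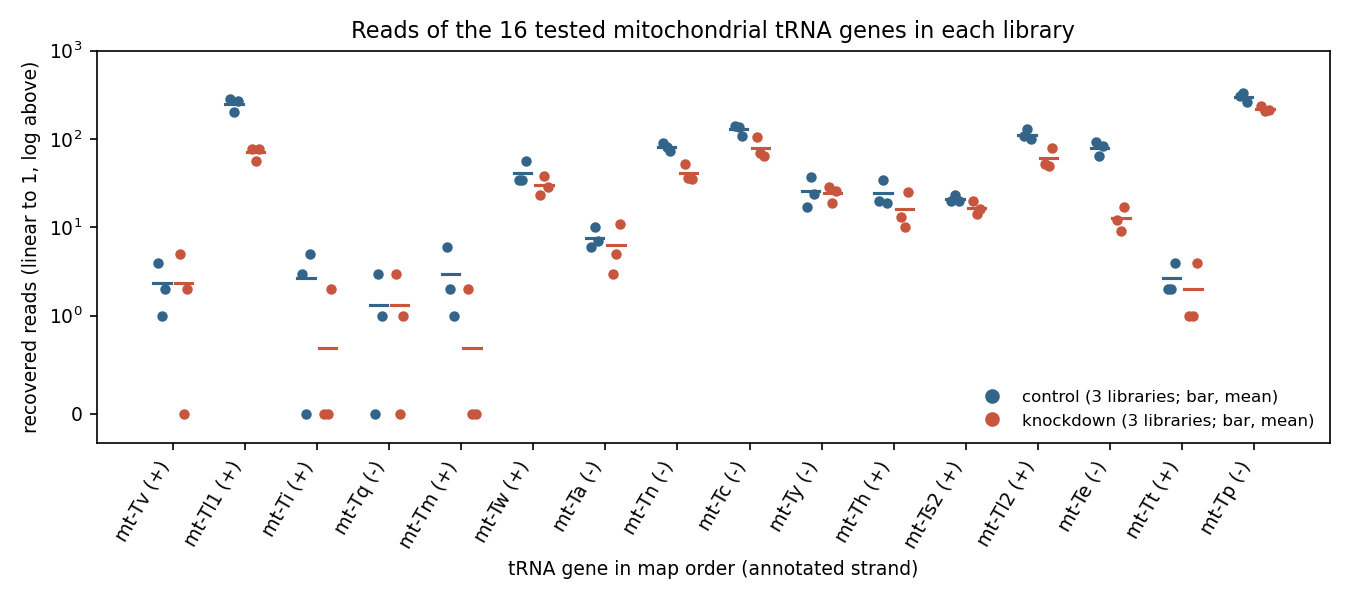
Points are recovered reads of single libraries (linear up to 1 and logarithmic above) for the 16 tested tRNA genes in map order with their annotated strand, and bars are group means. mt-Tl1 and mt-Te show the widest gap between the groups, mt-Tp is high in both, and mt-Tv, mt-Ti, mt-Tq, mt-Tm and mt-Tt lie at or below 6 reads in every library.

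Ratios of 2 genes within a library do not depend on how libraries are scaled, and 4 of 5 planned ratios could be formed. mt-Nd6 is annotated on the minus strand and its neighbour mt-Nd5 on the plus strand. The FPKM of mt-Nd6 stood at 81.6%, 73.4% and 74.3% of that of mt-Nd5 in control and at 66.8%, 64.1% and 66.2% in knockdown. With no strand setting stated, reads from mt-Nd6 and from RNA of the opposite strand could not be told apart here. The ratio of mt-Nd6 to mt-Nd5 therefore cannot be read as a comparison of the strands. mt-Rnr2 stood at 164%, 142% and 184% of mt-Rnr1 in control and at 125%, 102% and 138% in knockdown. mt-Rnr2 stood at 5.48%, 4.71% and 5.18% of mt-Co1 in control and at 2.75%, 2.58% and 2.85% in knockdown. In these 3 ratios every knockdown library lay below every control library. The mean log2 ratios differed by -0.22, -0.43 and -0.91, each with a two-sided exact permutation p of 0.1, the smallest that 3 against 3 libraries allow, and 0.133 after Benjamini-Hochberg adjustment over the 4 ratios. A test of this size cannot pass 0.05, so these differences rest on the separation of the libraries. The ratio of mt-Nd4l to mt-Nd4 overlapped between the groups (0.898%, 0.962% and 1.18% in control, 0.699%, 1.05% and 1.41% in knockdown; exact permutation p = 1). The ratio of mt-Atp8 to mt-Atp6 was not formed because mt-Atp8 was listed at 0 in knockdown library 1.

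**Figure D5:**
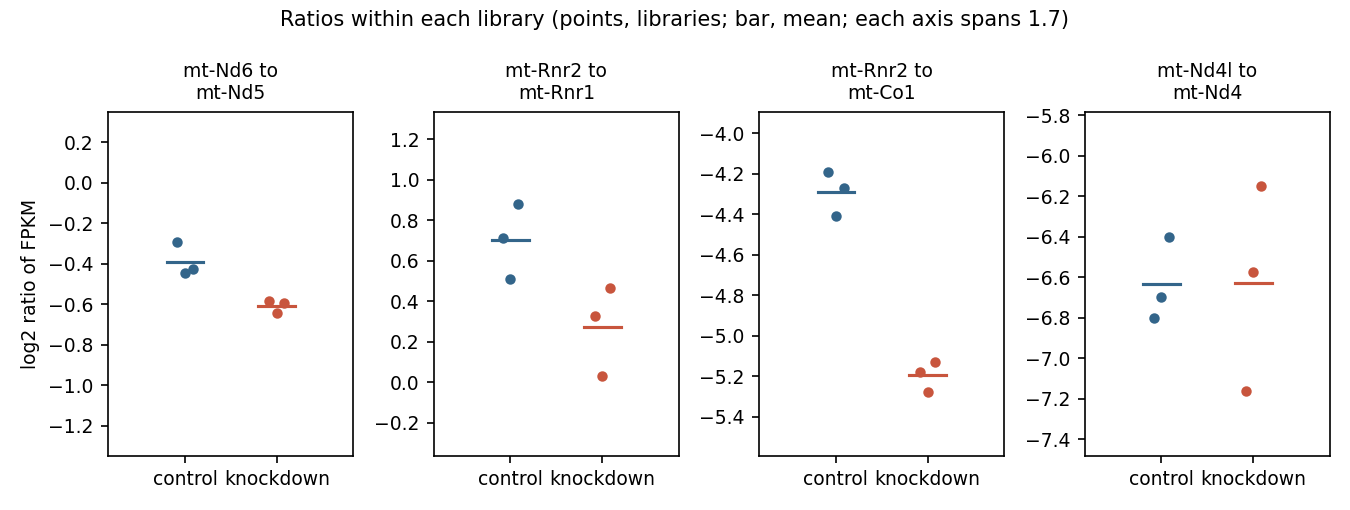
Each panel shows the log2 ratio of the FPKM of 2 mitochondrial genes in each library, with bars for group means and axes of equal span. The gap between groups is widest for mt-Rnr2 to mt-Co1, with means of -4.29 in control and -5.20 in knockdown, and the groups overlap only for mt-Nd4l to mt-Nd4.

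Nuclear genes listed for making and handling mitochondrial RNA went both ways, and the list also holds some genes of DNA enzymes. Among 51 genes tested, 14 rose, 16 fell and 21 stayed short of the threshold, with a median log2 change of 0.01. The 30 called are 58.8% of the list, near the 62.4% of all tested genes. Over all tested genes 29.1% were called lower. The list for transcription and its termination also holds Polg, Polg2, Twnk and Ssbp1, genes of mitochondrial DNA replication. In that list 2 of 13 were higher and 7 lower, with a median of -0.36 and 69.2% called. The 2 higher were Polg and Twnk, so no listed transcription or termination gene was called higher. There Mterf1b, a termination factor gene, fell from 3.61 ± 0.359 to 1.52 ± 0.36 FPKM, Tfb2m, which the polymerase needs for initiation, from 8.80 ± 0.847 to 5.22 ± 0.631 FPKM, and Ssbp1, a single-stranded DNA binding protein gene, from 5.29 ± 0.168 to 3.56 ± 0.237 FPKM (SD, n = 3). For cleavage and modification of mitochondrial RNA 6 of 18 were higher and 5 lower, with a median of 0.06 and 61.1% called. Trmt10c, which encodes a subunit of mitochondrial RNase P, the enzyme that cuts the front end of tRNAs, fell from 10.9 ± 1.67 to 4.53 ± 0.693 FPKM (SD, n = 3; limma adjusted p = 0.00013). Mrm1, an rRNA methyltransferase gene, rose from 3.54 ± 0.417 to 7.53 ± 0.256 FPKM and Pus1, a pseudouridine synthase gene, from 17.1 ± 0.909 to 26.1 ± 0.558 FPKM. For polyadenylation, stability and decay 6 of 20 were higher and 4 lower, with a median of 0.02. Lrpprc, whose protein stabilises mitochondrial mRNAs, fell from 22.0 ± 1.96 to 12.4 ± 1.04 FPKM (SD, n = 3; limma adjusted p = 0.00015). Grsf1, an RNA granule protein gene, rose from 25.4 ± 1.59 to 45.1 ± 2.13 FPKM and Ptcd2 from 11.5 ± 0.738 to 18.0 ± 0.782 FPKM.

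Nuclear genes for subunits of the same complexes mostly did not pass the threshold. Among 78 genes tested, 19 rose, 10 fell and 49 stayed short of it, with a median log2 change of 0.06 beside -1.46 for the mitochondrial mRNA genes. The 29 called are 37.2% of the list, beside 62.4% called over all tested genes. With equal sums over nuclear protein-coding genes in each library 14 were higher and 17 lower. For complex I 7 of 36 were higher and 4 lower; Ndufb8 had 12.8 ± 1.54 FPKM in control and 25.8 ± 2.32 in knockdown, Ndufs1 14.8 ± 1.58 and 10.1 ± 0.60, and Ndufa8 75.3 ± 15.0 and 120.8 ± 18.3 (SD, n = 3). Complex III had 3 of 9 higher and 1 lower, among them Uqcrc1 (49.9 ± 1.40 to 67.9 ± 5.47 FPKM), Uqcr11 (64.8 ± 10.5 to 113 ± 23.4) and Uqcrq (138 ± 18.97 to 95.5 ± 10.6). In complex IV 2 of 13 were higher and 2 lower. Its members included Cox6a2, a muscle-type subunit gene (20.7 ± 4.21 to 2.38 ± 0.731 FPKM), Cox7a2 (107.9 ± 9.84 to 79.3 ± 2.69) and Cox6a1 (411 ± 45.4 to 592 ± 58.7). For complex V 5 of 16 were higher and 3 lower, with Atp5a1, the gene of the catalytic core's alpha subunit, at 169 ± 15.1 FPKM in control and 291 ± 12.3 in knockdown. Atp5c1 rose from 118 ± 4.34 to 158 ± 13.2 FPKM and Atp5f1 fell from 80.9 ± 3.402 to 67.9 ± 2.69 FPKM. Complex II has no subunit encoded in mitochondrial DNA, and 2 of its 4 genes were higher. Those were Sdhc (32.3 ± 0.649 to 39.4 ± 1.20 FPKM) and Sdha (47.4 ± 1.65 to 55.5 ± 1.00 FPKM), while Sdhd had 105 ± 4.51 and 96.3 ± 5.07 FPKM and did not pass. The call of Sdha was lost without control library 2 (limma adjusted p = 0.0535) and with equal nuclear sums (0.106). With equal nuclear sums Sdhd was lower (log2 change -0.22, limma adjusted p = 0.0188).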

How the data were processed

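The authors deposited 1 table of FPKM values for all 6 libraries, beside each gene's position and length. The submitters' processing notes name GRCm38 and mm10. The aligner, counter, read length and strand setting are unstated in what was used here. FPKM times gene length was a whole multiple of 1 step for 100% of non-zero values (within 0.01), which gave the reads. Median-of-ratios factors over the 15867 genes above 0 in every library differed from 1 by at most 2.2e-09, so the deposited values already carry that scaling, and the library size implied by the step differs from the summed reads by -1.53% to 2.42%.

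limma 3.58.1 in R 4.3.3 (lmFit, eBayes with trend) was run on log2(FPKM + 1) for genes averaging 1 FPKM or more. P-values were adjusted by Benjamini-Hochberg over all of them, with calls at 0.05. It was tested on simulated data. Ratios used a two-sided exact permutation test. Copies were found by shared windows of 50 and 100 bases among GENCODE M21 transcripts and aligned with Biopython 1.88; the genome itself was not used here. The named genes are all members, the 3 members of each nuclear list with the smallest p, copies averaging 1 FPKM or more, and Ppp2ca. Members and lists were chosen with earlier results of these data known.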

Additional observations from a re-analysis of the deposited data

How the results depend on the processing

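Of the 21 mitochondrial genes called lower, 17 kept direction and call under all 15 alternatives (those that tested them); the others were mt-Atp8, mt-Tc, mt-Tp and mt-Co1, the last only without a filter on low values (limma adjusted p = 0.357). Other pseudocounts, no variance trend, voom and both scalings left 12 or 13 mRNA genes and 6 tRNA genes lower; no filter gave 11 and 4. Leaving out 1 library gave 12 to 13 mRNA and 4 to 8 tRNA genes lower. Median-of-ratios scaling repeats the deposited values.

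Among genes without a call, the sign turned for mt-Tv with a pseudocount of 10 (log2 change 0.00027) and, with equal sums over nuclear protein-coding genes, for mt-Tq (-0.0077) and mt-Ty (-0.044). Leaving out 1 library, the log2 change ran from -0.76 to 0.49 for mt-Tv, -0.44 to 0.50 for mt-Tq, -0.74 to 0.065 for mt-Ta and -0.22 to 0.34 for mt-Ty, and the log2 ratio of mt-Nd4l to mt-Nd4 from -0.24 to 0.27. Of the nuclear genes listed for mitochondrial RNA, which include some DNA enzymes, 9 were called lower with a mean FPKM of at least 5 (fewer genes tested). Nuclear respiratory chain subunits called lower numbered 17 with equal nuclear sums. As a share of summed FPKM, the members took 7.001% in control and 3.14% in knockdown.

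Deviations of same-numbered libraries from their group means correlated at -0.011, 0.16 and 0.052 across genes, not all over 0.1, so the numbers were not taken as pairs; not every library correlated best with its own number. With a replicate block 12 mRNA and 7 tRNA genes were lower; mt-Atp8 lost its call and mt-Tm gained one. The mean ratio differences of -0.22, -0.43, -0.91 and 0.004 cannot move with a replicate block. With the same replicate numbers in both groups they stay equal by arithmetic, so the block is no check of them. Few reads limit mt-Atp8 and 5 tRNA genes, and also mt-Nd3 (23, 26 and 16 reads in control, 11, 4 and 6 in knockdown). In knockdown mt-Nd4l had 11, 16 and 22 reads, mt-Ta 3, 5 and 11, and mt-Te 12, 9 and 17.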
